A study of Rattus norvegicus with 6 samples.

Results

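The genes described here are 7 of the 22250 genes measured in cultured heart cells of newborn rats. Dbh, Th and Ddc encode enzymes of catecholamine synthesis, Uchl1 and Tubb3 are used as markers of neurons, and Sox10 and S100b as markers of Schwann cells. They were chosen by name, 1 table row each, with the treatment difference and the library levels of these data already known. Their levels are therefore given as a description, and a pattern among them is not independent support for it. Of the 7, 5 had enough reads to enter the test across all genes, and Th and Sox10 did not.

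Neonatal rat cardiomyocytes were freed with collagenase from hearts of wild-type Sprague-Dawley rats aged 1 day and grown in medium with 10% foetal bovine serum, per the labels. One group of 3 libraries received the solvent DMSO and the other 3Cl-HBA at 40 µM, both for 48 h, in a series about activation of hydroxycarboxylic acid receptor 1. The labels number the libraries 1 to 3 in each group and do not say whether they came from separate cultures or litters, nor how many hearts were pooled, so p-values measure only the spread between these samples, which may be technical. They name no step that removes non-muscle cells, and the RNA is of the whole culture. In such bulk RNA, fewer cells of a type and less RNA per cell cannot be told apart.

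Catecholamines are made from tyrosine in steps. Tyrosine hydroxylase (Th) makes DOPA and sets the pace, aromatic amino acid decarboxylase (Ddc) makes dopamine, dopamine beta-hydroxylase (Dbh) makes noradrenaline inside storage vesicles, and Pnmt turns noradrenaline into adrenaline. In the heart the main source is sympathetic nerve endings, whose cell bodies lie outside it, so most messenger RNA of these neurons is not in a dissected heart. Cardiac ganglia, their Schwann cells and scattered intrinsic adrenergic cells are inside it. Ddc is also known from mouse heart muscle, where it lies next to the imprinted gene Grb10.

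Libraries held 13240800 to 17202191 reads assigned to genes, each treated library more than each DMSO library, and 6.83% to 7.71% of them were mitochondrial. Levels are CPM, reads divided by a scaled library total. The troponin gene Tnnt2, a heart muscle marker, had 2935 ± 164 CPM (SD, n = 3) with DMSO and 2927 ± 99.1 CPM (SD, n = 3) with 3Cl-HBA, and the collagen gene Col1a1 10460 ± 436 and 10180 ± 96.3 CPM. Muscle and fibroblast RNA were thus both abundant. Of 12 heart muscle markers, 0 passed the edgeR test, but 4 were lower at an unadjusted p under 0.05 (2.59% of all tested genes were). Of these, 2 lay entirely lower with 3Cl-HBA, where 5.22% of all tested genes did. One library, 3Cl-HBA replicate 1, differed from the others by gene length: its median log2 difference from the mean of the other 5 libraries was 0.0725 for 856 genes shorter than 1000 bases and -0.135 for 289 genes of 8000 bases or more, each averaging at least 5 CPM. The 2 muscle markers that lay entirely lower, Ryr2 (14817 bases) and Myh7 (5923 bases), were both lowest in that library. Whether gene length had a part in their levels was not tested.

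Of the 3 synthesis enzymes, Th was far lower per length than Ddc and Dbh, whose levels overlapped. The sequences before the starts of all 3 are shown to set them side by side. RefSeq promoter windows were found for 6 of the 7 genes in assembly GRCr8. The windows below are the 250 bases before the annotated start, written 5′ to 3′ on the gene's own strand. Ddc has 3 annotated starts, and the table counts reads per gene, so reads from these starts are summed. Capitals mark the letters TGACGTCA (the cAMP response element), TGANTCA (AP-1) and ATTA (the core that homeodomain proteins such as Phox2a bind), on either strand.
Dbh, chr3:30886078-30886327, plus strand: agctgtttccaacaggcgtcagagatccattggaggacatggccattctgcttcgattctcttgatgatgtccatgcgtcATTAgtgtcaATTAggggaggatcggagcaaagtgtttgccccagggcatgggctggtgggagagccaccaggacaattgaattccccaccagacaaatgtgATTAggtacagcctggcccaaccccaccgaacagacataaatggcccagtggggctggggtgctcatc
Th, chr1:207508219-207508468, minus strand: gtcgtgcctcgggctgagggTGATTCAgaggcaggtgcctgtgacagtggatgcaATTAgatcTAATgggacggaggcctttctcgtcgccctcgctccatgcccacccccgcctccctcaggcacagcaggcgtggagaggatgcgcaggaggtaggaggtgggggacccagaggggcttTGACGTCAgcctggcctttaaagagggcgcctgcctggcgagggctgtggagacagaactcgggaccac
Ddc, first listed start, chr14:90682784-90683033, minus strand: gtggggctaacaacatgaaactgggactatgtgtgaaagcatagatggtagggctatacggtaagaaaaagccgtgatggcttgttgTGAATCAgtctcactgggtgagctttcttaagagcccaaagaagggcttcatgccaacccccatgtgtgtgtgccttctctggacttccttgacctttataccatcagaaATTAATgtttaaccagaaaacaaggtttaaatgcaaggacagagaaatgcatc
Ddc, the second listed start, chr14:90675627-90675876, minus strand: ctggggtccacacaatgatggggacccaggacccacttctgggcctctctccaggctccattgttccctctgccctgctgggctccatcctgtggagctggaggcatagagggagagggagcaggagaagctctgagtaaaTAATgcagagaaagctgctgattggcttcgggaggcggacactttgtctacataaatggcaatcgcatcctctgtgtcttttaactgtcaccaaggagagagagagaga
Ddc, the third listed start, chr14:90665821-90666070, minus strand: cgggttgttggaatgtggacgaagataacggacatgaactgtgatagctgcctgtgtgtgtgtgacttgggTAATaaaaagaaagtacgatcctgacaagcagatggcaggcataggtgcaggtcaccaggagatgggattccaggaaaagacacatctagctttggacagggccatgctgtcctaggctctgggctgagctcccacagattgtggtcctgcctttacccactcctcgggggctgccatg

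The Th window holds TGACGTCA at bases -69 to -62, counted from -1 just before the start, and 1.59% of 33469 promoter windows of that length hold it. It also holds TGATTCA at -230 to -224, and the first Ddc window holds TGAATCA at -163 to -157, where 6.34% of windows hold some form of this AP-1 site. The core ATTA occurs 3 times in the Dbh window, 2 times in that of Th, and 2, 1 and 1 times in those of Ddc, with 2 overlapping matches in the first. It is found in 57% of windows. The longer paired homeodomain site, in 0.2% of windows, is in none of the 8 windows of these genes. The E-box CANNTG, in 65.5% of windows, was found 2 times for Dbh and once each for Th, S100b and the first and the third Ddc start, and the Sox letters AACAATG (3.44% of windows) and ACAAAG (16.3%) occurred once each in the second Ddc window and in no other. A match is a description of letters, not of a bound site.

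**Figure D1:**
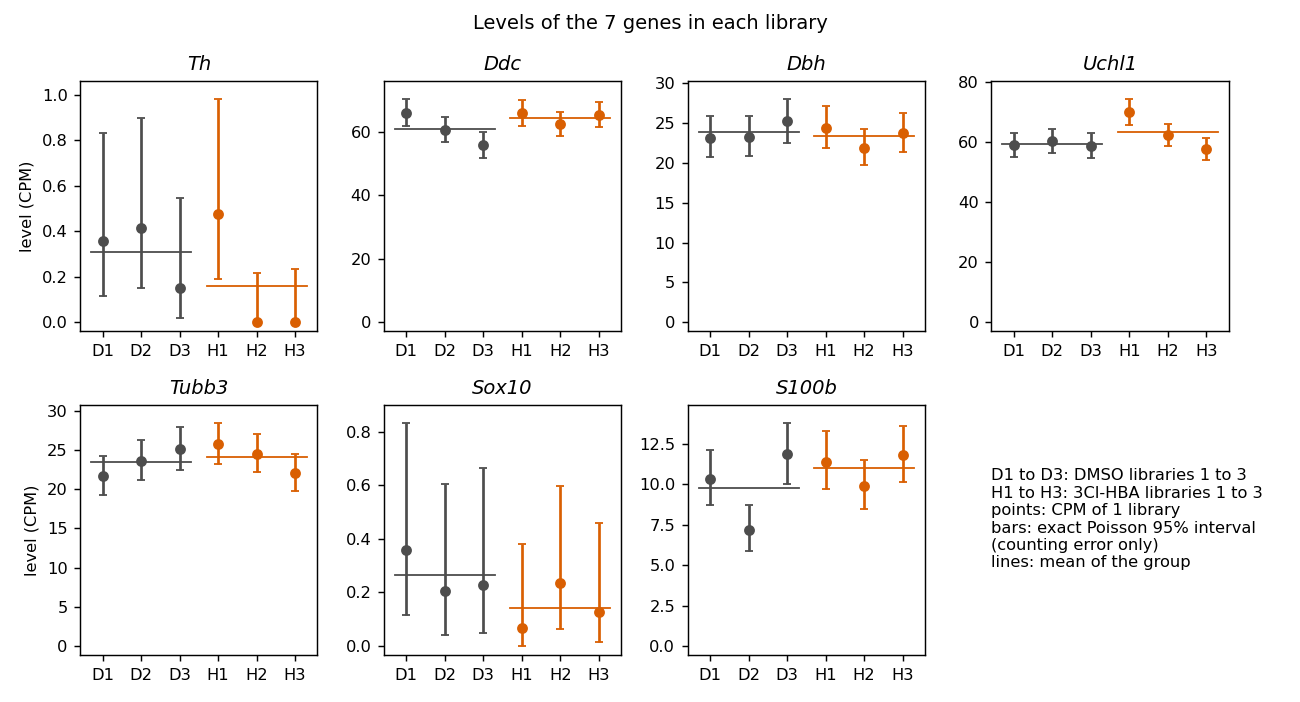
Level of each gene in CPM (vertical axes, separate scales) with DMSO libraries D1 to D3 and 3Cl-HBA libraries H1 to H3, with exact Poisson 95% intervals and group means as lines. Th was at 0.477 CPM in H1 and at 0 in H2 and H3, while Dbh stayed between 21.9 and 25.2 CPM.

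Per length, Uchl1 was the most abundant of the 7 genes and Th and Sox10 were near 0. On the authors' FPKM scale (reads scaled by gene length and library total), means over the 6 libraries were 57.6 for Uchl1, 13.5 for Tubb3, 12.1 for Ddc, 10.5 for Dbh, 7 for S100b, 0.132 for Th and 0.0671 for Sox10. Uchl1, at 54.1 to 66.1 FPKM, did not overlap Tubb3, at 12.3 to 14.6. Tubb3 overlapped Ddc (10.7 to 12.7 FPKM), and Ddc overlapped Dbh (9.64 to 11.1 FPKM). S100b, at 4.83 to 7.94 FPKM, lay below Dbh in each library and above Th (0 to 0.271) and Sox10 (0.0226 to 0.118), which overlapped each other.

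The enzymes of catecholamine synthesis did not all share a level. Th, the first enzyme of the route (ENSRNOG00000020410, chromosome 1, 216073031 to 216080287, minus strand, in the table's coordinates, of a build not named), had 5, 6 and 2 reads with DMSO replicates 1 to 3 and 7, 0 and 0 reads in 3Cl-HBA replicates 1 to 3. All 7 treated reads were thus in replicate 1. A count of 0 allows up to 0.175 CPM in 3Cl-HBA replicate 2 and 0.191 CPM in replicate 3, taking 3 reads as the limit, and intervals and limits here cover counting error only. The 95% Poisson interval of 3Cl-HBA replicate 1, 0.192 to 0.983 CPM, overlapped that of each DMSO library. Whether it meets the other treated libraries depends on the bound: it starts above their 3-read limits but below the exact Poisson bounds of 0.216 and 0.235 CPM. Mean Th FPKM was 0.0127 of that of Dbh and 0.011 of that of Ddc.

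Ddc, the decarboxylase (ENSRNOG00000004327, chromosome 14, 91905919 to 91996774, minus strand), had 66, 60.6 and 55.9 CPM with DMSO and 65.9, 62.4 and 65.3 CPM with 3Cl-HBA. The groups overlapped, and DMSO replicate 3 was lowest. Its neighbour Grb10, a signalling adaptor 25077 bases away, had 764 ± 17.6 CPM (SD, n = 3) with DMSO and 778 ± 15.1 CPM (SD, n = 3) with 3Cl-HBA, and Fignl1, 1486 bases away on the other side, 19.7 ± 1.04 and 19.4 ± 0.133 CPM. No gene in the table overlaps Ddc.

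Dbh, the enzyme that makes noradrenaline (ENSRNOG00000006641, chromosome 3, 5709236 to 5731898, plus strand), had 323, 337 and 332 reads with DMSO and 358, 374 and 372 with 3Cl-HBA. Scaled, these were 23.1, 23.2 and 25.2 CPM and 24.4, 21.9 and 23.7 CPM. The groups overlapped at both ends, with the highest level with DMSO replicate 3 and the lowest in 3Cl-HBA replicate 2. Its variance between libraries was 0.834 of what counting error gives, and 9.18% of the 11110 genes averaging at least 5 CPM had a lower ratio (median 2.44).

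Dbh showed no steady likeness to the other enzymes or to the neuronal genes. Over the 6 libraries, as a description, Pearson's r of log2 CPM with Dbh was 0.349 for Th (Spearman's rho 0.29), -0.356 for Ddc (-0.314), 0.0825 for Uchl1 (-0.257), 0.337 for Tubb3 (0.543), -0.385 for Sox10 (-0.6) and 0.479 for S100b (0.771). Without the 2 libraries farthest from the median of Dbh these r were 0.00612, 0.45, 0.807, 0.752, -0.921 and 0.592 in the same order, so several turned or grew with 4 libraries left. Values of r at least as high as that of S100b were found for 19.7% of the 11110 genes. The libraries share depth and length trends, and 6 points say little about any pair.

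The gene most like Dbh of all 11110 was its neighbour Sardh. Sardh encodes sarcosine dehydrogenase, a mitochondrial enzyme of choline breakdown, and lies 5302 bases beyond Dbh on the opposite strand, with no overlap in the table. It had 881, 914 and 889 reads with DMSO and 968, 1019 and 1013 with 3Cl-HBA. Reads of Dbh per read of Sardh were 0.367, 0.369 and 0.373 with DMSO and 0.37, 0.367 and 0.367 with 3Cl-HBA, so the ratio was nearly the same in each library. Pearson's r was 0.996 over the 6 libraries (rho 0.943, and r 0.992 without the 2 farthest), the highest r of 11084 adjacent pairs of such genes, whose median was 0.0551. The ratio had a coefficient of variation of 0.697%, where counting error alone gives 6.27%. This likeness is closer than independent counts of these sizes give, and its cause was not tested; the strand setting of the counts is not given in the sources used here. Whether the counts assigned to Dbh include reads of Sardh cannot be settled from the table, so the level of Dbh, its ratio to Th, its low variance and its fold change are uncertain to that extent. The genes next most like Dbh were Angptl8 (r 0.988, mean 10.8 CPM), Sdha (0.985), Rps18 (0.984) and Cox6b1 (0.983), each picked as 1 of the highest among 11110 values. On the other side of Dbh, Fam163b had 3.85 ± 0.227 CPM with DMSO and 4.63 ± 1.13 CPM with 3Cl-HBA.

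**Figure D2:**
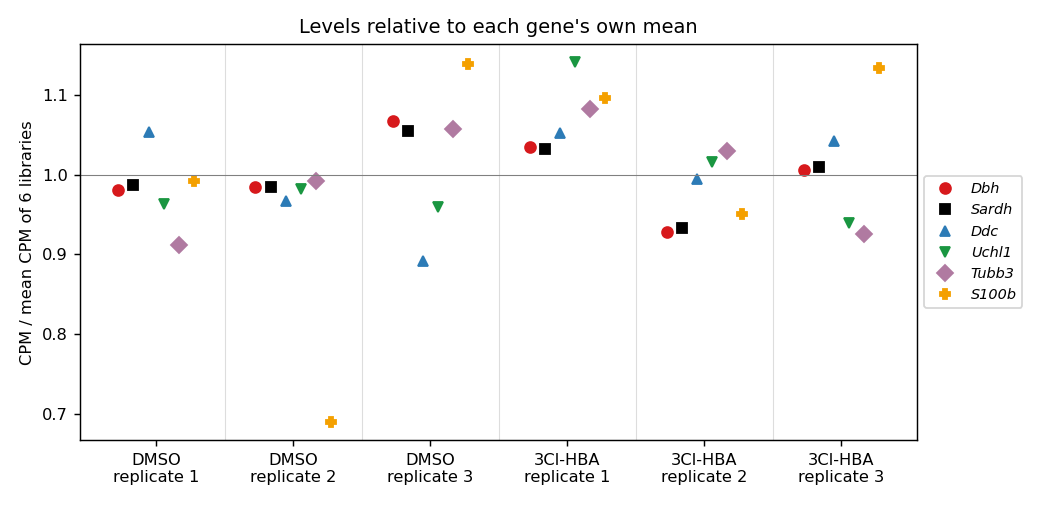
Level of each gene in a library divided by its own mean over the 6 libraries (vertical axis, no unit), by library. Points of Dbh and of its neighbour Sardh lie beside each other in each of the 6 libraries, and S100b is lowest with DMSO replicate 2.

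Uchl1, a ubiquitin hydrolase abundant in neurons (ENSRNOG00000002343, chromosome 14, 43133218 to 43143973, minus strand), had 59.1, 60.2 and 58.8 CPM with DMSO and 70, 62.3 and 57.7 CPM with 3Cl-HBA. Its 3Cl-HBA replicate 1 stood above the other 5 libraries, and its Poisson interval there, 65.8 to 74.4 CPM, overlapped that of 3Cl-HBA replicate 2 (58.6 to 66.1) and of no other library. 3Cl-HBA replicate 3 was the lowest of the 6. The related hydrolases Uchl5 and Bap1 had 23.6 ± 4.29 and 102.5 ± 2.11 CPM with DMSO and 23.1 ± 1.44 and 102.1 ± 5.62 CPM with 3Cl-HBA.

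Tubb3, the beta tubulin of neurons (ENSRNOG00000017209, chromosome 19, 56220755 to 56229813, plus strand), had 21.7, 23.6 and 25.2 CPM with DMSO and 25.8, 24.5 and 22 CPM with 3Cl-HBA. The groups covered almost the same range. Tubb3 made up 2.41% of the summed FPKM of 8 beta tubulins, against 62.1% for Tubb5, 19.5% for Tubb4b and 11.5% for Tubb6, which dividing and non-neuronal cells use. Beta tubulins are near copies, so reads could be shared among them, and Tubb3 levels are uncertain to that extent. Of the 7 tested tubulins, 5 were highest in 3Cl-HBA replicate 1, among them Tubb3, Tubb5, Tubb4b and Tubb6, and 18.4% of all tested genes were. The margin was small for Tubb5, at 767.9 CPM there, 766.2 CPM in 3Cl-HBA replicate 2 and 766 CPM in DMSO replicate 3. As these near copies may share reads, the 5 are not separate observations.

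Sox10, the transcription factor that defines Schwann cells and their precursors (ENSRNOG00000011305, chromosome 7, 120393254 to 120403523, minus strand), had 5, 3 and 3 reads with DMSO and 1, 4 and 2 with 3Cl-HBA. No library exceeded 0.358 CPM, and 3Cl-HBA replicate 1 was the lowest. An unnamed gene on the other strand spans Sox10 and had at most 3 reads in a library.

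S100b, a calcium-binding protein of glia that other cells also make (ENSRNOG00000001295, chromosome 20, 13130636 to 13142856, minus strand), had 10.3, 7.16 and 11.8 CPM with DMSO and 11.4, 9.88 and 11.8 CPM with 3Cl-HBA. DMSO replicate 2 was low, with a Poisson interval of 5.85 to 8.68 CPM that met only the lower part of that of 3Cl-HBA replicate 2 (8.45 to 11.5). S100b had 925 reads in all and Sox10 had 18.

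No gene of the 7 passed the test between 3Cl-HBA and DMSO. The edgeR quasi-likelihood test called 0% of the 13903 genes tested at a Benjamini-Hochberg adjusted p under 0.05, and 0 of the 5 members tested. At an unadjusted p under 0.05, 351 genes were higher and 360 lower, which is 2.52% and 2.59%, and no member was among them. No member had groups that do not overlap, where 5.24% of all tested genes lay entirely higher and 5.22% entirely lower. As 49.8% of tested genes had a log2 fold change above 0, the 4 of 5 members above 0 are few to read anything from.

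The size of a treatment difference was bounded more closely for the 5 tested members and loosely for the other 2. The edgeR log2 fold change was -0.03 for Dbh (SE 0.0943, 95% interval -0.221 to 0.158, adjusted p 0.996). It was 0.08 for Ddc (SE 0.0679, -0.0527 to 0.221), 0.09 for Uchl1 (SE 0.0694, -0.0483 to 0.231) and 0.04 for Tubb3 (SE 0.0959, -0.156 to 0.23). For S100b it was 0.18 (SE 0.149, -0.124 to 0.478), which without DMSO replicate 2 became -0.00809 and without DMSO replicate 3 became 0.332. As folds, the upper bounds were 1.12 for Dbh, 1.17 for Ddc, Uchl1 and Tubb3, and 1.39 for S100b, and the lower bounds 0.858 to 0.967. Fitted without a filter on low counts, Th had -1.05 (SE 0.972, -2.95 to 0.86) and Sox10 -0.85 (SE 1.01, -2.82 to 1.13). These intervals do not exclude a 2-fold difference either way in Sox10, or a 2-fold lower level of Th. Adjusted p were 0.93 for Th and Sox10 and 0.984 or more for the other 5. Without 3Cl-HBA replicate 1 all Th reads left were with DMSO, and no finite fold could be fitted. Over the other alternatives Th ranged from -0.415 without 3Cl-HBA replicate 2 to -2.1 by limma-voom (unadjusted p 0.0158, adjusted p 0.95), Sox10 from -0.528 without 3Cl-HBA replicate 1 to -1.42 without replicate 2, and Ddc from 0.0242 without DMSO replicate 3 to 0.146 without DMSO replicate 1.

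**Figure D3:**
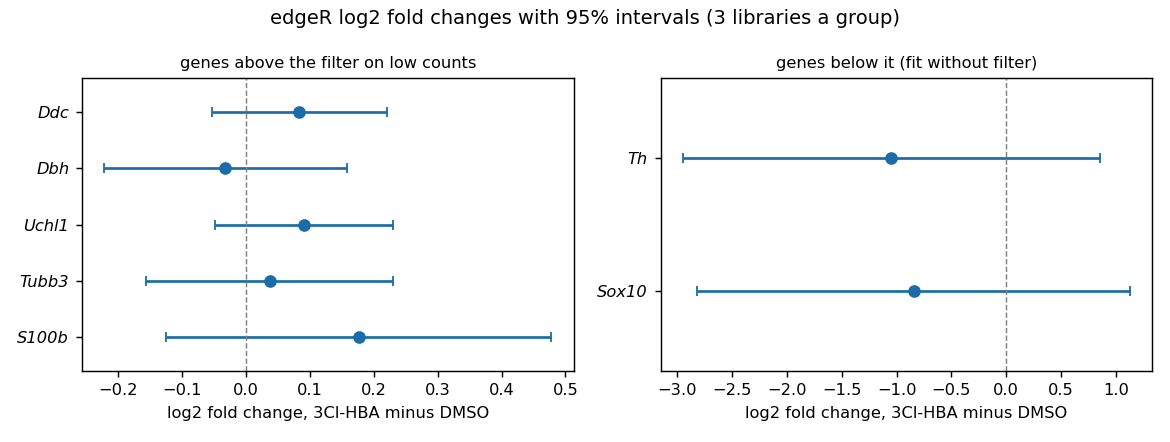
edgeR log2 fold change, 3Cl-HBA minus DMSO (horizontal axes, different scales), as points with 95% intervals for 5 genes in the test and for Th and Sox10 fitted without the filter. Each interval includes 0, and those of Th and Sox10 run from below -2.8 to above 0.8.

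Replicate 1 of 3Cl-HBA was the highest of the 6 libraries for 3 of the 7 genes, Th, Uchl1 and Tubb3, and the lowest for Sox10. Over all tested genes it was the highest for 18.4%, so 2 of 5 tested members is a small count to set against that share. The log2 difference of this library from the mean of the other 5 (log2 CPM, prior count 2) was 0.0612 for Dbh, 0.0906 for Ddc, 0.141 for Tubb3, 0.18 for S100b and 0.232 for Uchl1. Among the 11110 genes averaging at least 5 CPM, 31.2%, 23.5%, 13.8%, 8.77% and 4.9% had a difference at least as large, in that order, and the SD over these genes was 0.148. Against the other 2 treated libraries alone the differences were 0.0999, 0.0473, 0.148, 0.0763 and 0.224. Uchl1 is 1064 bases long in the table and Tubb3 1767, and genes of 1000 to 2000 bases had a median difference of 0.0452 in this library. With each library's length trend removed, the log2 fold change of Uchl1 was 0.0738 in place of 0.0914, and without 3Cl-HBA replicate 1 it was 0.015. For Tubb3 it turned from 0.0374 to -0.0113 without that library.

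**Figure D4:**
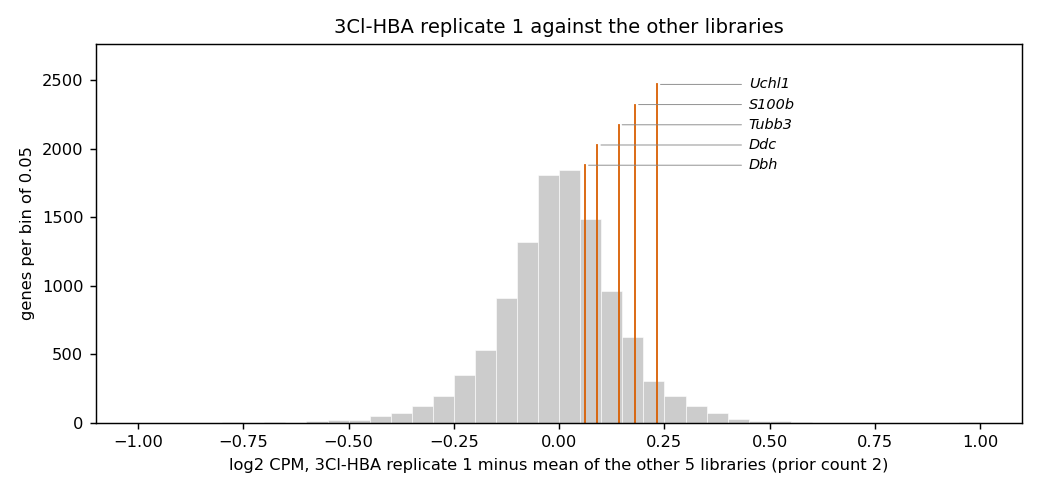
Number of genes (vertical axis) by log2 CPM of 3Cl-HBA replicate 1 minus the mean of the other 5 libraries (horizontal axis), for 11110 genes averaging at least 5 CPM. Lines mark Dbh at 0.0612, Ddc at 0.0906, Tubb3 at 0.141, S100b at 0.18 and Uchl1 at 0.232, all on the right of the centre and within the spread of all genes.

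At the edge of detection, 4 other genes of adrenergic cells resembled Th in their high library. Pnmt, which makes adrenaline, had 0, 0 and 2 reads with DMSO and 7, 0 and 1 with 3Cl-HBA. The granule proteins Chga and Chgb had 2, 1 and 0 reads and 3, 2 and 5 reads with DMSO, and 4, 0 and 0 reads and 8, 3 and 1 reads with 3Cl-HBA. Phox2a, a transcription factor needed for the noradrenergic identity of neurons, had 1, 2 and 3 reads and then 8, 3 and 1. Each was highest in 3Cl-HBA replicate 1. These 4 were singled out after their values were seen, and together with Th they had 11, 11 and 12 reads with DMSO and 34, 6 and 3 with 3Cl-HBA.

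For single genes that low, the highest library says little. Of 2582 genes with 5 to 50 reads in all, 3Cl-HBA replicate 1 was the highest for 15.8%, and the other libraries for 14.9% to 18.6%. Of 854 genes with 10 to 20 reads in all, 3.75% had 7 or more of them in that library and were highest there, as Th, Pnmt and Phox2a were. The limit of 7 equals the count of Th and Pnmt in that library, so this share is a description and no test. Of the 9 listed chromaffin cell markers, 6 were below the filter with at least 1 read, and 4 of these were highest in 3Cl-HBA replicate 1. Scg3 and Cartpt were not, and Pcsk1n had no read. The 4 are Pnmt, Chga, Chgb and Phox2a, the genes already singled out, so their count adds no separate support. The tested marker Slc18a1 had 10, 8 and 17 reads with DMSO and 16, 12 and 23 with 3Cl-HBA, and was highest in 3Cl-HBA replicate 3. Without Penk, an opioid peptide gene that heart cells express, at 102 ± 3.17 CPM (SD, n = 3) with DMSO, this list summed to 1.22, 1.24 and 2.12 CPM with DMSO and 3, 1.35 and 1.85 CPM with 3Cl-HBA. The neuropeptide gene Npy of sympathetic neurons had 1 read each in 3Cl-HBA replicates 1 and 2 and 0 elsewhere, too few to compare with Th. Whether another cell type had a part in the Th reads of that library was not tested.

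**Figure D5:**
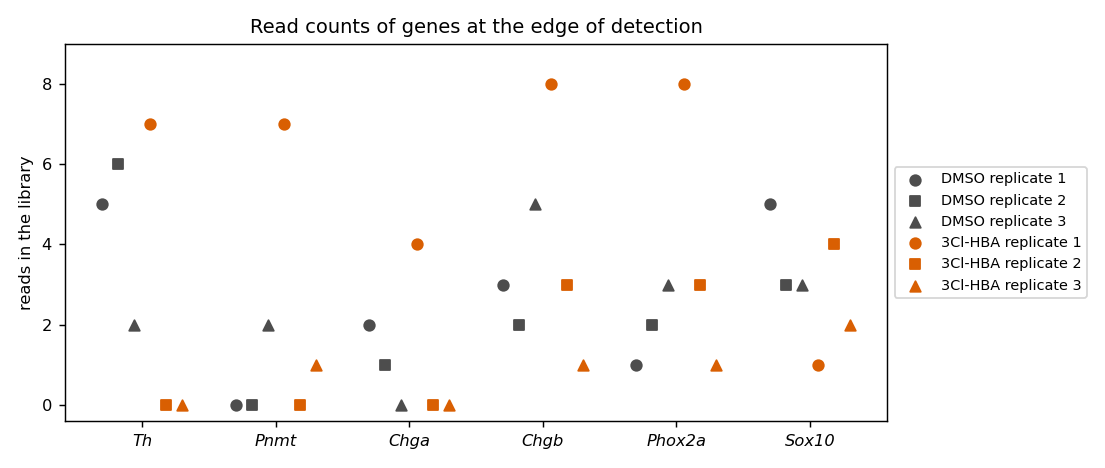
Reads per library (vertical axis) of Th, Pnmt, Chga, Chgb, Phox2a and Sox10, with DMSO libraries in grey and 3Cl-HBA libraries in orange, marked by replicate number. 3Cl-HBA replicate 1 is the top point for the first 5 genes and the lowest for Sox10.

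The genes around the synthesis route spanned a wide range of levels. Of the 4 synthesis enzymes, Pnmt included, 2 were tested and 0 passed. The 11 genes of cofactor supply were all tested and 0 passed, with 3 above 0 and a median log2 fold change of -0.0532, where all tested genes had a median of -0.00051. They include Qdpr, which regenerates tetrahydrobiopterin for Th (53.9 ± 2.41 CPM with DMSO and 52.5 ± 2.3 CPM with 3Cl-HBA, SD, n = 3). The copper pump Atp7a, which loads copper enzymes such as Dbh, had 61.4 ± 1.4 and 54.9 ± 6.43 CPM (log2 fold change -0.16, edgeR unadjusted p 0.0316, adjusted p 0.959). It is 1 of the long genes, and 3Cl-HBA replicate 1 was its lowest library, with 713 reads. The list's summed level was lower in each treated library, at 282.5 to 292.8 CPM with DMSO against 273.2 to 276 CPM with 3Cl-HBA. Atp7a is part of this sum. Of single tested genes, 5.22% lay entirely lower with 3Cl-HBA, so the sum is given as a description.

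Of 12 genes of storage, release, uptake and breakdown, 8 were tested, 0 passed, 5 were above 0 and the median was 0.136. Their summed level overlapped between groups (197.3 to 206 and 198.4 to 206.5 CPM), and the 4 untested genes, Slc6a3, Slc22a3, Chga and Chgb, had lower mean FPKM than Th. The degrading enzyme Maoa had 109 ± 5.7 CPM with DMSO and 103 ± 4.42 CPM with 3Cl-HBA. The vesicle transporter Slc18a2, which loads noradrenaline, had 11 ± 0.986 and 10.9 ± 0.75 CPM. Slc6a2, the noradrenaline transporter of sympathetic nerve endings, had 27, 20 and 15 reads with DMSO and 42, 38 and 23 with 3Cl-HBA (0.55 ± 0.329 SE as log2 fold change, edgeR's adjusted p 0.975), with overlapping groups and its highest level in 3Cl-HBA replicate 1.

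Transcription factors of the sympathetic lineage were mostly at a few CPM. Of 9 matched, 5 were tested and 0 passed, with 2 above 0 and a median of -0.0991. Hand1 and Hand2, which heart muscle also uses, had 5.05 ± 0.521 and 6.34 ± 0.959 CPM with DMSO and 4.55 ± 0.488 and 7.17 ± 0.414 CPM with 3Cl-HBA. Sox11 was lower in each treated library, at 9.35 ± 0.521 and 7.87 ± 0.757 CPM (-0.25 ± 0.149 SE as log2 fold change, edgeR's adjusted p 0.975). The list summed to 26.7 to 27.5 CPM with DMSO and 24.7 to 27.5 CPM with 3Cl-HBA.

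Among 24 general neuronal genes, 17 were tested, 0 passed, 11 were above 0 and the median was 0.0374. The list's summed level was 431.6 to 448.9 CPM with DMSO and 425.1 to 454.7 CPM with 3Cl-HBA. Much of it came from the adhesion molecule Ncam1, which heart cells also make (287 ± 10.4 and 277 ± 11.7 CPM), and from Uchl1. Markers that define neurons were far lower. Snap25, of synaptic vesicle fusion, had 3 to 11 reads in a library, Stmn2 3 to 7, and Elavl4 8 to 12. Rbfox3, which encodes the nuclear marker NeuN, had 1, 0 and 0 reads with DMSO and 1, 10 and 1 with 3Cl-HBA, so 10 of its 13 reads were in 3Cl-HBA replicate 2. Prph, the filament protein of peripheral neurons, had 12 ± 1.15 and 12.8 ± 2.09 CPM. Gap43, of growing nerve endings, had 12, 13 and 4 reads with DMSO and 26, 21 and 14 with 3Cl-HBA (0.90 ± 0.441 SE as log2 fold change, edgeR's unadjusted p 0.0481, adjusted p 0.959).

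Cholinergic and peptide genes of cardiac neurons were mostly at or near 0. Of 11, 2 were tested and 0 passed. Chat, which makes acetylcholine, had 0 reads in each library. Ache, which degrades it, had 11.5 ± 1.2 and 12.4 ± 0.688 CPM, and the choline transporter Slc5a7 8.7 ± 0.649 and 10 ± 0.338 CPM (0.20 ± 0.142 SE as log2 fold change, edgeR's adjusted p 0.984), higher in each treated library. The list's summed level, most of it from these 2 genes, was also higher in each treated library, at 23.1 to 24.3 CPM against 20.5 to 21.6 CPM with DMSO. Only this list and that of cofactor supply had sums that did not overlap between groups, in opposite directions, and the sums of all other lists overlapped. Of single tested genes, 5.24% lay entirely higher.

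Of 23 matched Schwann cell and glial genes, 15 were tested, 0 passed, 7 were above 0 and the median was -0.00532. They summed to 379.5 to 391.1 CPM with DMSO and 373.3 to 386.6 CPM with 3Cl-HBA. The myelin genes Pmp22, Cnp and Prx, which other heart cells express too, had 221 ± 7.6, 75.4 ± 1.79 and 15.1 ± 0.342 CPM with DMSO and 222 ± 1.75, 71.2 ± 5.38 and 14.3 ± 0.484 CPM with 3Cl-HBA. Of the genes that define the lineage, Cdh19 had 0 to 6 reads in a library, and Mag and Fabp7 had none. The artemin receptor Gfra3 had 1.66 ± 0.225 and 2.83 ± 0.498 CPM and was higher in each treated library (0.78 ± 0.291 SE as log2 fold change, edgeR's unadjusted p 0.0105, adjusted p 0.959).

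Over these 7 lists together, 94 genes were matched and 60 tested. None passed. At an unadjusted p under 0.05 by edgeR, 2 were higher and 1 lower, where 2.52% and 2.59% of all tested genes were. Groups lay entirely higher for 3 and entirely lower for 5, where 5.24% and 5.22% of all tested genes did. The median log2 fold change was 0.000594. 3Cl-HBA replicate 1 was the highest library for 16 of the 60, or 26.7% (18.4% over all tested genes), and the median log2 difference of that library from the other 5 was 0.0658, against 0.00394 over all tested genes. Of the 29 with reads below the filter, 8 were highest there, and 15.8% of all genes with 5 to 50 reads were. Those 8 include Th, Pnmt, Chga, Chgb and Phox2a, which were named after their values were seen.

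Neurotrophic factors and receptors gave the same count of 0: of 15 tested, 9 were above 0 and the median was 0.0175. The receptor Ntrk2 had 31.6 ± 1.13 CPM with DMSO and 32.1 ± 0.552 CPM with 3Cl-HBA. Melanocytes also use Sox10, and of their defining markers Tyr had 0, 2 and 0 reads with DMSO and 3, 0 and 0 with 3Cl-HBA. Pmel, also listed as defining, had 13.7 ± 0.807 CPM with DMSO and 11.9 ± 1.35 CPM with 3Cl-HBA, and which cells it came from was not tested. Kit and Mitf, which other cells express, had 51.2 ± 2.68 and 44.3 ± 4.46 CPM with DMSO and 53.4 ± 0.715 and 47.1 ± 2.87 CPM with 3Cl-HBA. Summed marker levels of other cells in 3Cl-HBA replicate 1, the library that was high for Th and Uchl1, were 26690 CPM for heart muscle, 15290 for fibroblasts, 2568 for smooth muscle and pericytes, 564.6 for endothelium and 391.3 for macrophages, each within the range of the DMSO libraries. Erythroid markers summed to 45.8 CPM there and to 34.4 to 36.1 CPM with DMSO, and their part in any result was not tested.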

How the data were processed

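The labels' protocols give a KAPA RiboErase kit, Illumina sequencing and DESeq2 as the authors' tool. For aligner, counter, strand setting, build and annotation: not given in the sources used here. The deposited table holds read counts per gene, not normalised, and FPKM computed by the authors, per the file headers. Columns were assigned through the treatment protocol and the number in each title. The 7 genes and all lists were chosen with earlier results of these data known.

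Counts were fitted by edgeR 4.0.16 under R 4.3.3 over 13903 genes and adjusted by Benjamini-Hochberg. The steps were filterByExpr with a minimum count of 10, then TMM, robust glmQLFit and glmQLFTest, with no block. They were also run on counts simulated from the means and dispersions of these data. CPM use TMM-scaled totals. SEs are the absolute unshrunk log2 fold change over the square root of F. FPKM were only compared between genes. DESeq2 1.42.0, limma-voom (limma 3.58.1), library totals, no filter, a replicate block, leaving out each library and, added after seeing the data, removing length trends were alternatives. Named genes were the members, the 3 most abundant of each list, those with an unadjusted p under 0.05, markers that define a cell type, the 5 most like Dbh, neighbours and tubulins, and others were chosen after their values were seen. Of 203 listed symbols 193 were matched, and the others were not analysed here. The fit assumes 6 separate samples, and the precision of each level is set by its reads. Some genes of these lists that the rule would name are not reported here.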

Additional observations from a re-analysis of the deposited data

How the results depend on the processing

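None of the 7 genes passed under any alternative in which its fold could be fitted. This leaves out Th without 3Cl-HBA replicate 1. The count of genes called over the whole table, 0 in the reported edgeR fit, was 2 when low counts were kept (no filter) and 0 to 8 when single libraries were left out (0 without DMSO replicate 1 or 3Cl-HBA replicate 1, and 8 without DMSO replicate 3). It was 0 with library totals, DESeq2, limma-voom, the replicate block and length trends removed. Signs turned for Dbh (log2 fold change -0.0647 to 0.0138 over left-out libraries, 0.00525 without DMSO replicate 3 and 0.0138 without 3Cl-HBA replicate 2), Tubb3 (-0.0174 without DMSO replicate 1, -0.0113 without 3Cl-HBA replicate 1, up to 0.0954) and S100b (-0.00809 without DMSO replicate 2, up to 0.332). Ddc (0.0242 to 0.146), Uchl1 (0.015 to 0.152), Th (-2.1 to -0.415) and Sox10 (-1.42 to -0.528) kept their signs where a value could be fitted, over all alternatives run. The difference of 3Cl-HBA replicate 1 from the other libraries for Sox10, -0.82 on the log2 scale, was -1.32 with a prior count of 0.5 and -0.475 with 5, since it rests on single reads. With the replicate number as a block, Dbh had -0.0318 and Uchl1 0.089, and no call changed. Same-numbered libraries did not deviate together (r of deviations -0.113, -0.0411 and -0.00848), and no library was most like its own number. These r cannot show whether same-numbered libraries shared a culture, litter or batch, which the labels do not say. Depth limits Th and Sox10, at 20 and 18 reads in all.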
